A study of Mus musculus with 8 samples.

Results

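The genes described here are 10 CC chemokine genes of the mouse, Ccl2, Ccl3, Ccl4, Ccl5, Ccl6, Ccl7, Ccl8, Ccl9, Ccl11 and Ccl19, in the posterior capsule of the knee joint. They were taken by gene symbol from the deposited table, in which all 10 were found among 16464 listed genes. The cast group held 4 libraries from wild type male C57BL/6 mice whose knee had been fixed at 140 degrees in a cast for 2 weeks, and the naive group held 4 libraries from wild type C57BL/6 mice without a cast. Mice were 10 weeks old by the sample labels. The design text gives 8 weeks for the animals that were immobilised, which matches if it is their age before the 2 weeks in a cast. The comparison asks which transcripts of the capsule differ after the joint has been held still.

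CC chemokines are small secreted proteins that attract leukocytes. They are held on glycosaminoglycans of vessel walls and matrix, and they act through G protein-coupled receptors named CCR, while atypical receptors take them up without G protein signalling. In joint tissue, synovial fibroblasts, endothelial cells and resident macrophages are known sources of them, and the leukocytes that they recruit can make more.

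Values are normalised read counts as the authors deposited them, and 1 read was worth 0.133 to 0.165 of this unit in all libraries but one. Whole reads could be recovered from these steps and came to between 5956148 and 7381255 in the cast libraries. The naive libraries held 6038095 to 6805349 reads, except naive replicate 4 with 1503880, in which 1 read was worth 0.647. In that library 2264 genes were at 0, where the other naive libraries had 487 to 608. Across genes, which are not independent replicates, its log2 values had a Pearson correlation of 0.882 to 0.897 with naive replicates 1 to 3, which had 0.979 to 0.982 with one another. The tissue label was checked with fibroblast genes, among them Col1a1 (type I collagen), Dcn (decorin) and Prg4 (lubricin), which summed to 19385 to 25694 in cast and 17189 to 25593 in naive libraries. Skeletal muscle genes summed to 13.2 to 314 in cast libraries, against 97.7 in naive replicate 4 and 1324 to 2339 in naive replicates 1 to 3, so muscle RNA was low in all cast libraries and in naive replicate 4. The labels do not state whether each library is a different mouse, and p-values here describe the spread among libraries alone.

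Of the 10 Ccl genes, Ccl8 and Ccl5 rose in cast capsules and the other 8 did not pass the test (limma, Benjamini-Hochberg adjusted p at most 0.05 over 15120 genes). Over all genes tested, 12.0% passed in either direction and 6.51% were higher and 5.46% lower in cast libraries, which is 984 and 826 genes. Quantile normalisation turned that balance, with 807 higher and 995 lower, and the muscle covariate gave 2669 higher and 1298 lower. Muscle level was largely aligned with group outside naive replicate 4, so fits with this covariate separate muscle level from group only in part. The median log2 fold change of the 10 genes, taken as cast minus naive in log2(value + 1), was 1.18, against 0.07 for all genes tested. The fold change was above 0 for 90% of the Ccl genes and for 55.7% of all genes. All 4 cast libraries lay above all 4 naive libraries for Ccl5, Ccl6 and Ccl8, which is 3 of 10 genes, where 11.1% of all genes were separated in that direction and 20.5% in either. In bulk tissue, fewer cells of a type and less RNA per cell cannot be told apart.

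**Figure D1:**
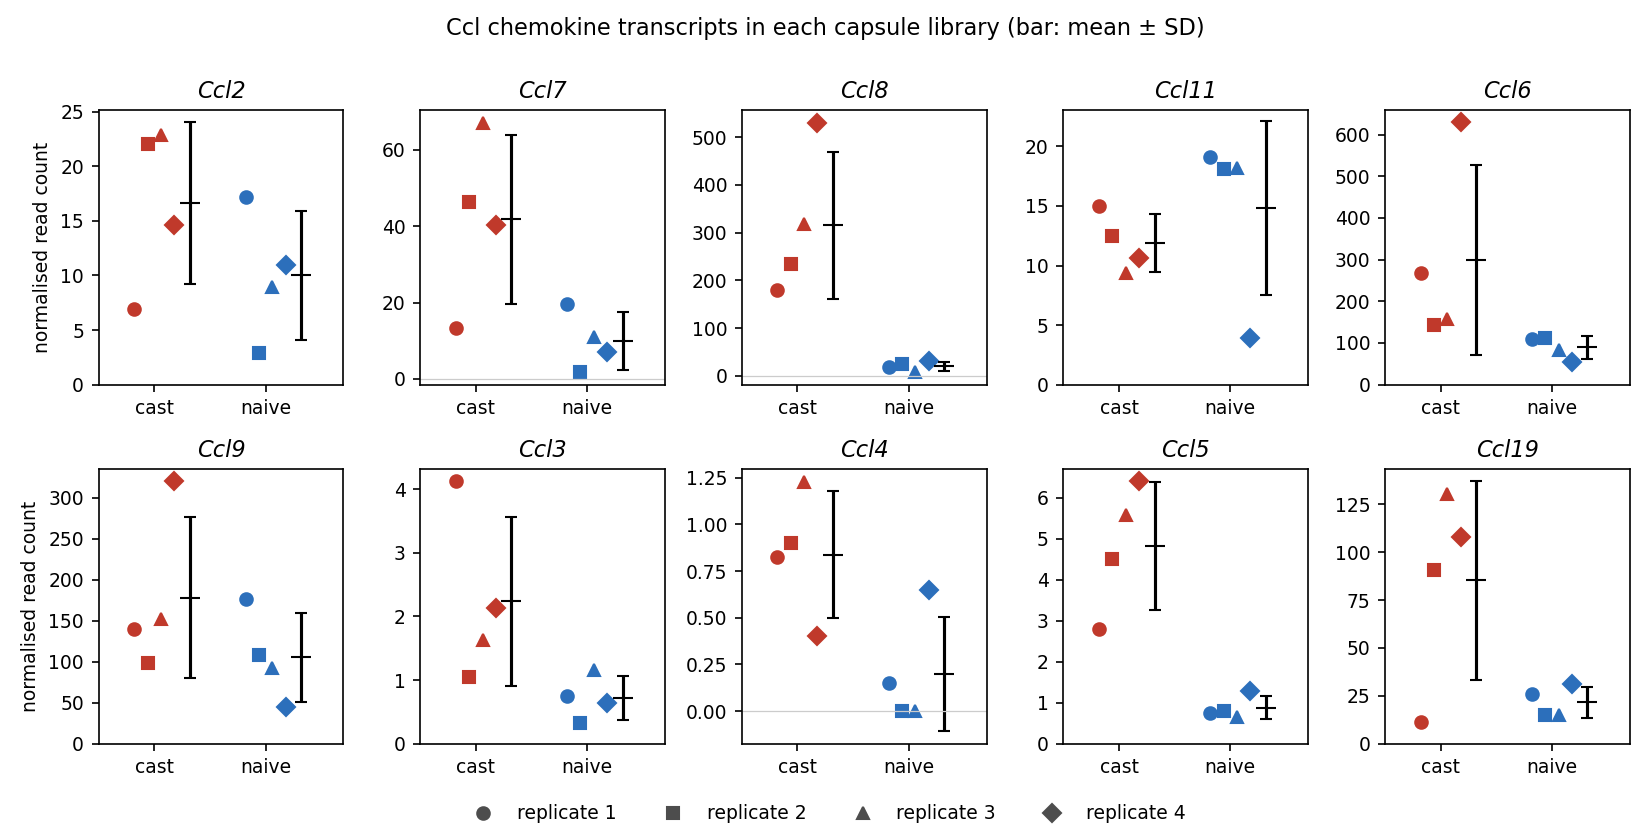
Normalised read count of each Ccl gene (y axis, linear, 1 scale per gene) in the 4 cast and the 4 naive libraries (x axis), with 1 symbol per replicate number and a bar for the mean ± SD. Ccl8 lay between 181 and 530.3 in cast libraries and between 8.10 and 30.4 in naive libraries, whereas Ccl2, Ccl9 and Ccl11 overlapped between the groups.

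Ccl8 had the largest fold change of the 10 genes. It encodes monocyte chemotactic protein 2, which in mice acts on the receptor CCR8 of T cells. The gene lies on chromosome 11 from 82115185 to 82116799 on the plus strand (build GRCm38). Its promoter window, from 250 bases before to 50 bases after the annotated start (RefSeq, GRCm38.p6, chr11:82114935-82115234, plus strand), is shown because this gene gave the largest difference. Capitals mark the match to the TATA box letters TATAAA, which begins 32 bases before the start.
Ccl8: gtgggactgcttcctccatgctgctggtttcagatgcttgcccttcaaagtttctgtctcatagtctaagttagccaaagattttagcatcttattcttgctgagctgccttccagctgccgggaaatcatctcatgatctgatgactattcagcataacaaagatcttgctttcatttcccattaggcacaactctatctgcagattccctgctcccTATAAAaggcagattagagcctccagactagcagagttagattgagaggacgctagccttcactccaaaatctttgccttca

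Ccl8 had 181, 234, 319 and 530.3 normalised read counts in cast replicates 1 to 4, against 18.8, 24.04, 8.10 and 30.4 in naive replicates 1 to 4. The lowest cast library was thus far above the highest naive library, and the groups did not overlap. Means were 316 ± 154 in cast and 20.3 ± 9.43 in naive libraries (SD, n = 4 each), a ratio of means of 15.5. Ccl8 rose with a log2 fold change of 3.91 (SE 0.42, 95% interval 2.96 to 4.86, limma adjusted p = 0.000738). Recovered reads came to 8970 in cast and 370 in naive libraries, and the ratio scaled to depth was 17.96 (95% counting interval 16.2 to 19.98). Such intervals cover counting error only. The call for Ccl8 held in 23 of 23 alternative settings, with log2 fold changes of 3.12 to 4.41.

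Ccl7 and Ccl2, which lie beside each other upstream of Ccl8, encode monocyte chemotactic proteins 3 and 1 and are ligands of CCR2, the receptor that brings monocytes out of the marrow into tissue. Ccl7 (chromosome 11, 82045712 to 82047525, plus strand) had 13.3, 46.3, 67.1 and 40.4 normalised read counts in cast replicates 1 to 4. It had 19.6, 1.77, 11.1 and 7.12 in naive replicates 1 to 4. Cast replicate 1 lay below naive replicate 1, and the other 3 cast libraries lay above all naive libraries. Ccl7 averaged 41.8 ± 22.1 in cast and 9.89 ± 7.51 in naive libraries (SD, n = 4 each) and did not pass the test (log2 fold change 2.10, SE 0.63, 95% interval 0.69 to 3.52, limma adjusted p = 0.0599). It passed without cast replicate 1 (limma log2 fold change 2.56, adjusted p = 0.0352) and without naive replicate 1 (2.52, adjusted p = 0.0380).

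Ccl2 (chromosome 11, 82035571 to 82037453, plus strand) had 6.92, 22.03, 22.9 and 14.7 normalised read counts in cast replicates 1 to 4, against 17.2, 2.90, 8.93 and 10.996 in naive replicates 1 to 4. The groups overlapped, and cast replicate 1 was again the lowest cast library. Ccl2 did not pass the test (log2 fold change 0.75, SE 0.50, 95% interval -0.36 to 1.87, limma adjusted p = 0.378), nor did it in any of 23 alternative settings. The interval includes 0.

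Ccl7 and Ccl2 levels were also set against each other within each library. Ccl7 had 1.93, 2.10, 2.93 and 2.75 times the normalised read count of Ccl2 in cast replicates 1 to 4, against 1.14, 0.611, 1.24 and 0.647 times in naive replicates 1 to 4. This ratio was higher in every cast library than in any naive library, including cast replicate 1, where both genes were low. The difference of log2(value + 1) between Ccl7 and Ccl2 was 1.20 ± 0.31 in cast and -0.15 ± 0.44 in naive libraries (SD, n = 4 each). An exact permutation test, two-sided, gave p = 0.0286, which is the lowest value possible with 4 against 4 libraries. Of 7 pairs compared, each of genes that follow one another among the 9 on chromosome 11, this one and Ccl8 with Ccl11 gave that p. After adjustment over the 7 pairs both stood at 0.100, so neither passed. A pair at the lowest possible p could stand lower only if more of the 7 pairs had a low p. The adjusted value therefore cannot decide on either ratio.

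Ccl11 encodes eotaxin, which attracts eosinophils through CCR3. The gene (chromosome 11, 82057823 to 82062955, plus strand) stands between Ccl7 and Ccl8. Ccl11 had 15.0, 12.4, 9.41 and 10.7 normalised read counts in cast replicates 1 to 4, against 19.1, 18.1, 18.2 and 3.88 in naive replicates 1 to 4. Naive replicate 4, whose value rests on 6 reads, lay below all other libraries, and the other 3 naive libraries lay above all 4 cast libraries. With all libraries Ccl11 did not pass (11.9 ± 2.42 in cast and 14.8 ± 7.31 in naive libraries, SD, n = 4 each; log2 fold change -0.12, 95% interval -1.09 to 0.86, limma adjusted p = 0.893). Without naive replicate 4 it passed as lower in cast libraries, with a log2 fold change of -0.61 (limma adjusted p = 0.0466). With muscle gene level as a covariate the sign was the opposite (1.27, limma adjusted p = 0.0436), so the direction for Ccl11 differed between these fits. Naive replicate 4, with muscle genes summing to 97.7, is the only naive library within the cast range of muscle level. The covariate fit therefore leans on that library and can separate muscle level from group only in part. Ccl8 had 12.0, 18.8, 33.9 and 49.7 times the normalised read count of Ccl11 in cast replicates 1 to 4, against 0.984, 1.33, 0.445 and 7.83 times in naive replicates 1 to 4.

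Ccl6 and Ccl9 are neighbours in the other cluster of Ccl genes on chromosome 11 and encode rodent chemokines, known as C10 and macrophage inflammatory protein 1 gamma, that signal through CCR1. Both lie on the minus strand, Ccl6 from 83587882 to 83593087 and Ccl9 from 83572919 to 83578636, 9245 bases apart. Their promoter windows (RefSeq, GRCm38.p6) are shown to compare a pair of neighbours, and capitals mark runs of at least 10 letters that occur in both. These runs cover 46 of 300 bases in Ccl6 (chr11:83593038-83593337, minus strand) and 40 of 300 bases in Ccl9 (chr11:83578587-83578886, minus strand), and the longest run found in both is 13 letters. A stretch of 19 capitals in Ccl9 is made of 2 overlapping runs that stand apart in Ccl6.
Ccl6: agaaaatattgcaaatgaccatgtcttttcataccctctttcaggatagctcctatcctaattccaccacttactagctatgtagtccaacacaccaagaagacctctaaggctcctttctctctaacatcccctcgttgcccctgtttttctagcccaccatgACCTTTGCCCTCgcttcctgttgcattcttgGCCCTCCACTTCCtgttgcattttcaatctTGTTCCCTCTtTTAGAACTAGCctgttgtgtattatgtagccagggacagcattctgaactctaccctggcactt
Ccl9: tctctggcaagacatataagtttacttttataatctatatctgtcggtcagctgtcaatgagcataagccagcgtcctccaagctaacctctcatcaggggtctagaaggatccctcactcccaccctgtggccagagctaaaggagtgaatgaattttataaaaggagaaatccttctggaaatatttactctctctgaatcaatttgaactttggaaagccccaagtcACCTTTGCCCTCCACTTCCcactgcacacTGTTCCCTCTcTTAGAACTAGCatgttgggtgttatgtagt

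Ccl6 was higher in every cast library than in any naive library but did not pass the test. It had 267, 142, 157 and 629 normalised read counts in cast replicates 1 to 4, against 109.8, 112, 83.5 and 53.7 in naive replicates 1 to 4. Cast replicate 4 was far above the next cast library, and cast replicates 2 and 3 lay close to the highest naive libraries. Means were 299 ± 227 in cast and 89.8 ± 27.3 in naive libraries (SD, n = 4 each; log2 fold change 1.51, SE 0.45, 95% interval 0.50 to 2.52, limma adjusted p = 0.0581). On recovered reads edgeR and DESeq2 called it higher in cast libraries (log2 fold change 1.73 in both, adjusted p = 0.0363 and 0.0026).

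Ccl9 had 140.1, 98.8, 152 and 321 normalised read counts in cast replicates 1 to 4, against 176, 108, 92.4 and 45.3 in naive replicates 1 to 4. Cast replicate 4 was again the highest, and the groups overlapped. Ccl9 did not pass (178 ± 97.8 in cast and 105 ± 54.1 in naive libraries, SD, n = 4 each; log2 fold change 0.76, SE 0.44, limma adjusted p = 0.309). Ccl6 had 1.90, 1.44, 1.03 and 1.96 times the normalised read count of Ccl9 in cast replicates 1 to 4, against 0.624, 1.04, 0.903 and 1.19 times in naive replicates 1 to 4 (difference in log2(value + 1), two-sided exact permutation p = 0.0857, 0.15 after adjustment over 7 pairs). The adjoining pair thus overlapped in this ratio, with cast replicate 3 within the naive range.

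Ccl5 rose in cast capsules and was low in both groups. It encodes RANTES, a product of T cells, platelets and macrophages that binds CCR1 and CCR3, and lies on chromosome 11 from 83525778 to 83530518 on the minus strand. Ccl5 had 2.80, 4.50, 5.59 and 6.40 normalised read counts in cast replicates 1 to 4, against 0.753, 0.807, 0.661 and 1.29 in naive replicates 1 to 4. Every cast library was above every naive library. Means were 4.82 ± 1.56 in cast and 0.879 ± 0.283 in naive libraries (SD, n = 4 each; log2 fold change 1.60, SE 0.26, 95% interval 1.02 to 2.18, limma adjusted p = 0.00491). The fold change on this scale understates the difference of a low gene: its 136 cast and 16 naive reads gave a ratio of 6.30 scaled to depth (95% counting interval 3.74 to 11.3). The call held in 23 of 23 alternative settings, with a highest adjusted p of 0.0481.

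Ccl3 and Ccl4, the macrophage inflammatory proteins 1 alpha and 1 beta, attract leukocytes and were near the limit of detection. Ccl3 (chromosome 11, 83647844 to 83649355, minus strand) had 4.12, 1.05, 1.64 and 2.13 normalised read counts in cast replicates 1 to 4, against 0.753, 0.323, 1.16 and 0.647 in naive replicates 1 to 4. Cast replicate 2 lay just below naive replicate 3, and the gene did not pass (log2 fold change 0.85, SE 0.31, 95% interval 0.16 to 1.54, limma adjusted p = 0.109). Ccl4 (chromosome 11, 83662584 to 83664683, plus strand) had 0.824, 0.899, 1.23 and 0.400 in cast replicates 1 to 4, against 0.151, 0, 0 and 0.647 in naive replicates 1 to 4. The value of 0.647 in naive replicate 4 is 1 read, and the gene did not pass (log2 fold change 0.63, SE 0.25, limma adjusted p = 0.146). Pooled reads were 60 in cast and 15 in naive libraries for Ccl3, and 23 in cast and 2 in naive libraries for Ccl4, and the ratios scaled to depth were 2.96 (95% counting interval 1.66 to 5.62) and 8.52 (2.11 to 74.6).

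Ccl19 encodes a ligand of CCR7 that guides dendritic cells and T cells in lymphoid tissue, and is the only one of the 10 genes outside chromosome 11 (chromosome 4, 42754525 to 42756577, minus strand). It had 11.5, 90.7, 130.5 and 108 normalised read counts in cast replicates 1 to 4, against 25.9, 14.8, 14.9 and 31.05 in naive replicates 1 to 4. Cast replicate 1 was below all naive libraries, and the other 3 cast libraries were well above the highest naive library. With all libraries Ccl19 did not pass (85.2 ± 51.7 in cast and 21.7 ± 8.14 in naive libraries, SD, n = 4 each; log2 fold change 1.56, SE 0.67, 95% interval 0.06 to 3.06, limma adjusted p = 0.172). Without cast replicate 1 the log2 fold change was 2.34 (limma adjusted p = 0.0035), and edgeR and DESeq2 called the gene with all libraries (log2 fold changes 2.02 and 1.97, adjusted p = 0.0465 and 0.0052). With the muscle covariate the fold change was -0.0074. Of the 831 words of 31 letters in its transcripts, 63.3% also occur in transcripts of 4 further genes, of which Gm2564 shares the most, and none of the 4 is listed in the table, so reads of near-identical copies may be counted under Ccl19 and its level is uncertain.

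**Figure D2:**
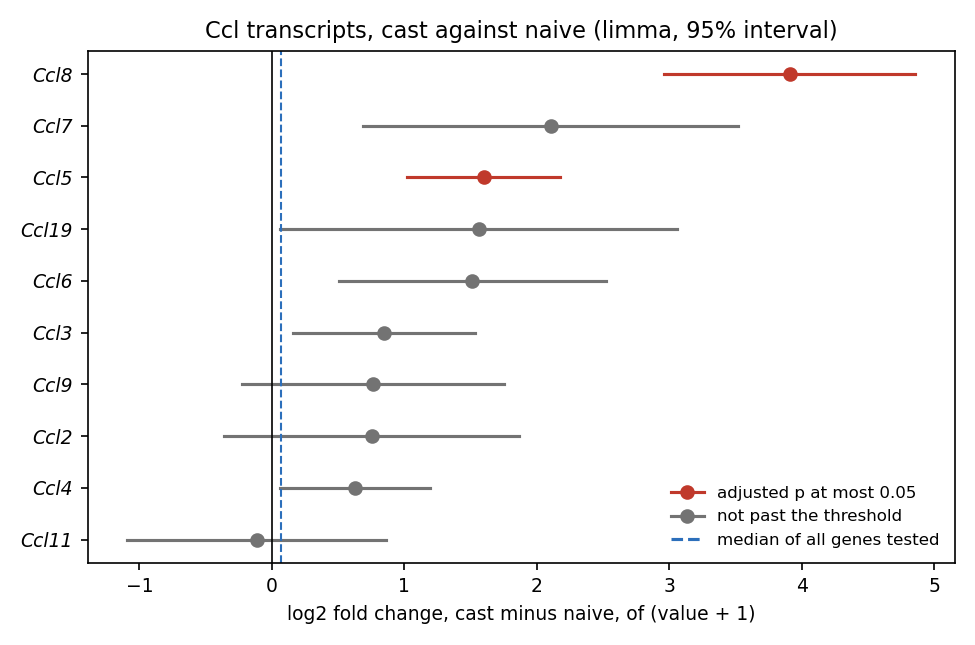
Log2 fold change of each Ccl gene, taken as cast minus naive in log2(value + 1) (x axis), with its 95% interval from limma. Points run from -0.12 for Ccl11 to 3.91 for Ccl8, Ccl8 and Ccl5 are coloured as past the threshold, and the dashed line is the median of all genes tested, 0.07.

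The number of Ccl genes called depended on the libraries and on the test. With limma, 4 were called without cast replicate 1 (Ccl5, Ccl7, Ccl8 and Ccl19, with 9.77% of all genes called) and 3 without naive replicate 1 (Ccl5, Ccl7 and Ccl8, 9.53%). Without naive replicate 4, Ccl4, Ccl5 and Ccl8 were higher and Ccl11 lower in cast libraries, which is 4 of 10 genes, with 17.7% of all genes called. Without cast replicates 1 and 2, 3 were called (Ccl5, Ccl8 and Ccl19, 4.73%). Array weights, which let noisy libraries count less, called 7 Ccl genes, 6 higher and Ccl11 lower in cast libraries, with 26.4% of all genes. The muscle covariate called 6, all of them higher in cast libraries and Ccl11 among them, with 26.2%. A block on replicate number called 2, Ccl5 and Ccl8, with 9.07%. Leaving out cast replicate 1 and naive replicate 4 together called 5, 4 higher and Ccl11 lower in cast libraries, with 21.7%. On recovered reads edgeR called 4 (Ccl5, Ccl6, Ccl8 and Ccl19, 13.6% of 13619 genes) and DESeq2 called 5 (the same 4 and Ccl7, 16.7% of 16126 genes). Ccl5 and Ccl8 were among the called genes in each of these fits. Over all 23 alternatives the adjusted p ran from 0.00261 to 0.120 for Ccl6, from 0.00800 to 0.239 for Ccl7, from 0.0160 to 0.987 for Ccl11 and from 0.000302 to 0.995 for Ccl19.

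**Figure D3:**
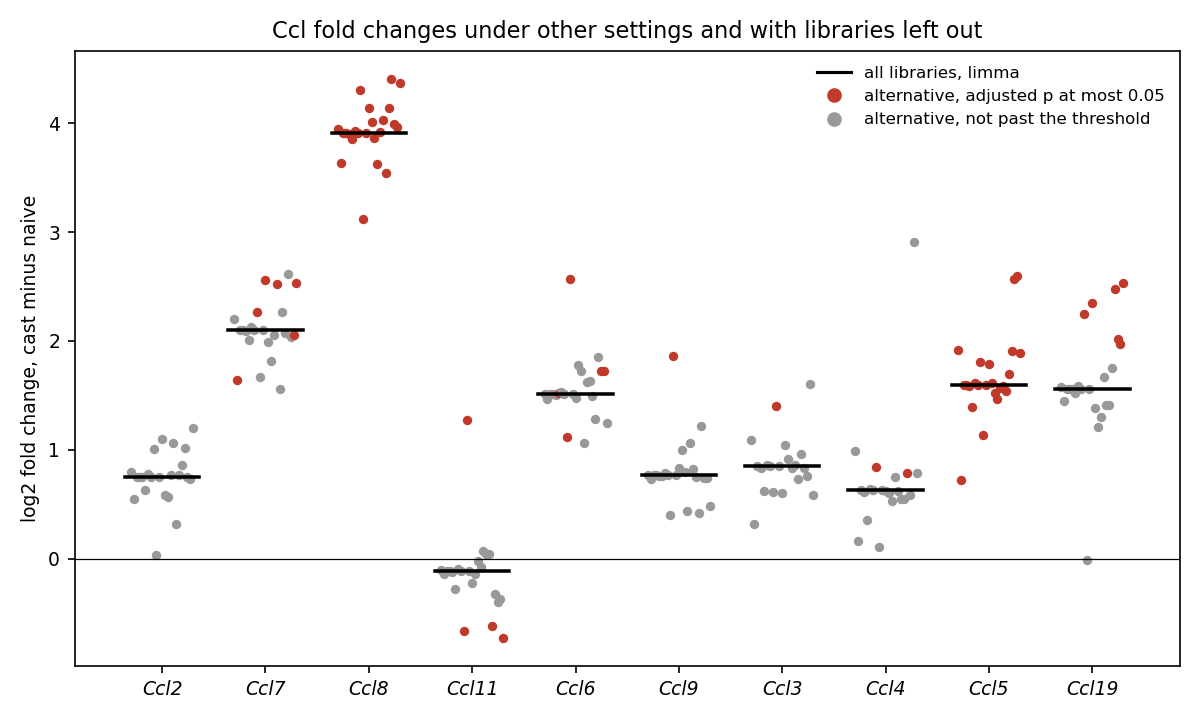
Log2 fold change of each Ccl gene, cast minus naive (y axis), in the fit of all libraries (black line) and in each alternative setting (points, coloured where the adjusted p was at most 0.05). All points of Ccl8 lie between 3.12 and 4.41 and all of Ccl5 between 0.73 and 2.60, both coloured throughout, and Ccl11 has points on both sides of 0.

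Levels of different genes were compared per kilobase of transcript. Ccl8 was the most abundant Ccl transcript in cast capsules at 618 ± 301 normalised read counts per kilobase, and Ccl6 in naive capsules at 62.4 ± 19.0 (SD, n = 4 each). In cast capsules Ccl6 (208 ± 158), Ccl19 (112 ± 68.2), Ccl9 (59.2), Ccl7 (52.2), Ccl2 (20.5), Ccl11 (10.98), Ccl5 (9.06), Ccl3 (2.92) and Ccl4 (1.27) followed. In naive capsules the order after Ccl6 was Ccl8 (39.8), Ccl9 (35.1), Ccl19 (28.6), Ccl11 (13.7), Ccl7 (12.3), Ccl2 (12.3), Ccl5 (1.65), Ccl3 (0.940) and Ccl4 (0.302). Neighbours in these orders overlapped in range, other than Ccl19 with Ccl11 and Ccl2 with Ccl5 in naive capsules. Within each of the 4 cast libraries Ccl8 was above Ccl6.

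Summed over the 10 genes, the level per kilobase was 652, 817, 1090 and 1818 in cast replicates 1 to 4, against 272, 205, 169 and 183 in naive replicates 1 to 4. Ccl8 made up 54.3, 56.1, 57.2 and 57.1% of that sum in cast replicates 1 to 4, against 13.6, 23.0, 9.41 and 32.5% in naive replicates 1 to 4. Its share therefore varied little among cast libraries (56.2 ± 1.35%) although their sums differed, and more among naive libraries (19.6 ± 10.3%, SD, n = 4 each). The share of Ccl6 was 18.6 ± 8.99% in cast and 30.2 ± 7.75% in naive libraries, and that of Ccl9 was 5.42 ± 1.38% in cast and 16.4 ± 5.71% in naive libraries.

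**Figure D4:**
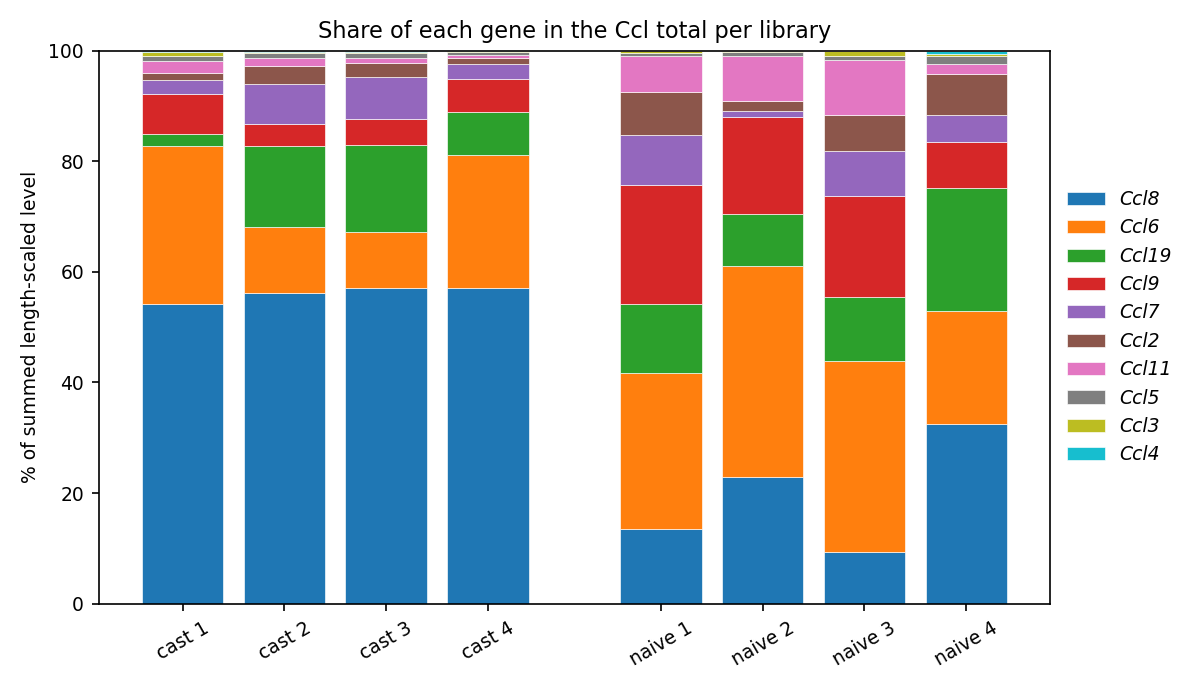
Share of each Ccl gene (y axis, % of the summed level per kilobase of the 10 genes) in each cast and naive library (x axis). Ccl8 fills 54.3 to 57.2% of each cast bar and 9.41 to 32.5% of each naive bar.

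Of the 10 genes, 9 stand on chromosome 11 in a pair of clusters, Ccl2, Ccl7, Ccl11 and Ccl8 over 81.2 kilobases and Ccl5, Ccl9, Ccl6, Ccl3 and Ccl4 over 139 kilobases. Of these 9 genes, Ccl8 in the first cluster and Ccl5 in the second rose. RefSeq promoter windows were found for 5 genes, Ccl3, Ccl6, Ccl8, Ccl9 and Ccl19. The letters GGG and CC set 5 letters apart, a short form of the NF-kB site, occurred on either strand in 2 of the 5 windows (Ccl9 and Ccl19) and in 50.8% of 32851 windows of all genes. TGANTCA, of the AP-1 type, occurred in 1 of 5 (Ccl9) and in 7.81% of all windows, and TATAAA in 2 of 5 (Ccl8 and Ccl9) and in 13.6%. TTC and GAA set 4 letters apart, of the STAT type, matched in 0 of 5 and in 6.95% of all windows. A match describes letters and not a bound site.

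Further Ccl genes were compared in the same fit. Of 15 other Ccl ligands 9 were tested, and 1 rose, 1 fell and 7 did not pass (median log2 fold change -0.03). Ccl12, monocyte chemotactic protein 5 of the mouse and a further CCR2 ligand, lies between Ccl11 and Ccl8 in the first cluster. Ccl12 had 19.1, 14.2, 20.7 and 18.8 normalised read counts in cast replicates 1 to 4, against 0.904, 0.323, 0.661 and 1.94 in naive replicates 1 to 4, and rose with a log2 fold change of 3.35 (limma adjusted p = 0.000198). The groups were far apart for this gene, and cast replicate 1 was not low. Ccl24, eotaxin 2 and a ligand of CCR3 like Ccl11, had 3.13, 2.85, 1.4998 and 3.47 in cast replicates 1 to 4, against 34.7, 16.1, 33.4 and 40.1 in naive replicates 1 to 4. All cast libraries lay below all naive libraries, and the gene fell (log2 fold change -3.06, limma adjusted p = 0.00057). Ccl21a, which shares the receptor CCR7 with Ccl19, averaged 238 ± 122 in cast and 162 ± 62.8 in naive libraries (SD, n = 4 each) and did not pass (log2 fold change 0.49, limma adjusted p = 0.494).

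Among CC chemokine receptors, 7 of 11 were tested, and Ccr1 and Ccr7 rose while 5 did not pass (median log2 fold change 0.85). Ccr1, the receptor of Ccl3, Ccl5, Ccl6 and Ccl9, had 61.1, 76.9, 79.2 and 85.2 normalised read counts in cast replicates 1 to 4, against 13.9, 16.3, 19.5 and 0.647 in naive replicates 1 to 4 (log2 fold change 2.98, limma adjusted p = 0.0230). The groups did not overlap, and the call was lost without cast replicate 2, 3 or 4 (adjusted p = 0.0592, 0.0671 and 0.0556), the value of naive replicate 4 being 1 read. Ccr7, the receptor of Ccl19, averaged 4.39 ± 1.82 in cast and 0.764 ± 0.392 in naive libraries (SD, n = 4 each; log2 fold change 1.57, limma adjusted p = 0.00962), and was not past the threshold without cast replicates 1 and 2 (adjusted p = 0.0629) or with the muscle covariate (0.0652). Ccr2, the receptor of Ccl2, Ccl7 and Ccl12, averaged 169 ± 62.8 in cast and 36.5 ± 22.7 in naive libraries and did not pass (log2 fold change 2.67, limma adjusted p = 0.0550). Naive replicate 4 stood at 2.59 for Ccr2 and the other naive libraries at 46.3 to 49.7, and without it the gene passed (log2 fold change 1.73, adjusted p = 0.00232). With all libraries Ccr2 passed by edgeR (adjusted p = 0.0341), by DESeq2 (0.00232) and by quantile normalisation (0.0358). The same held with array weights (0.000777), a pseudocount of 5 (0.0314) and the muscle covariate (0.0132). Ccr2 also passed without cast replicate 1 and naive replicate 4 together, and not in the other alternatives. Ccr8, the receptor of Ccl8, had 3 reads over all cast libraries and 5 over all naive libraries and was too low to be tested. Ccr3, the receptor of Ccl11 and Ccl24, had 29 reads in cast and 10 in naive libraries and did not pass (limma adjusted p = 0.169).

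**Figure D5:**
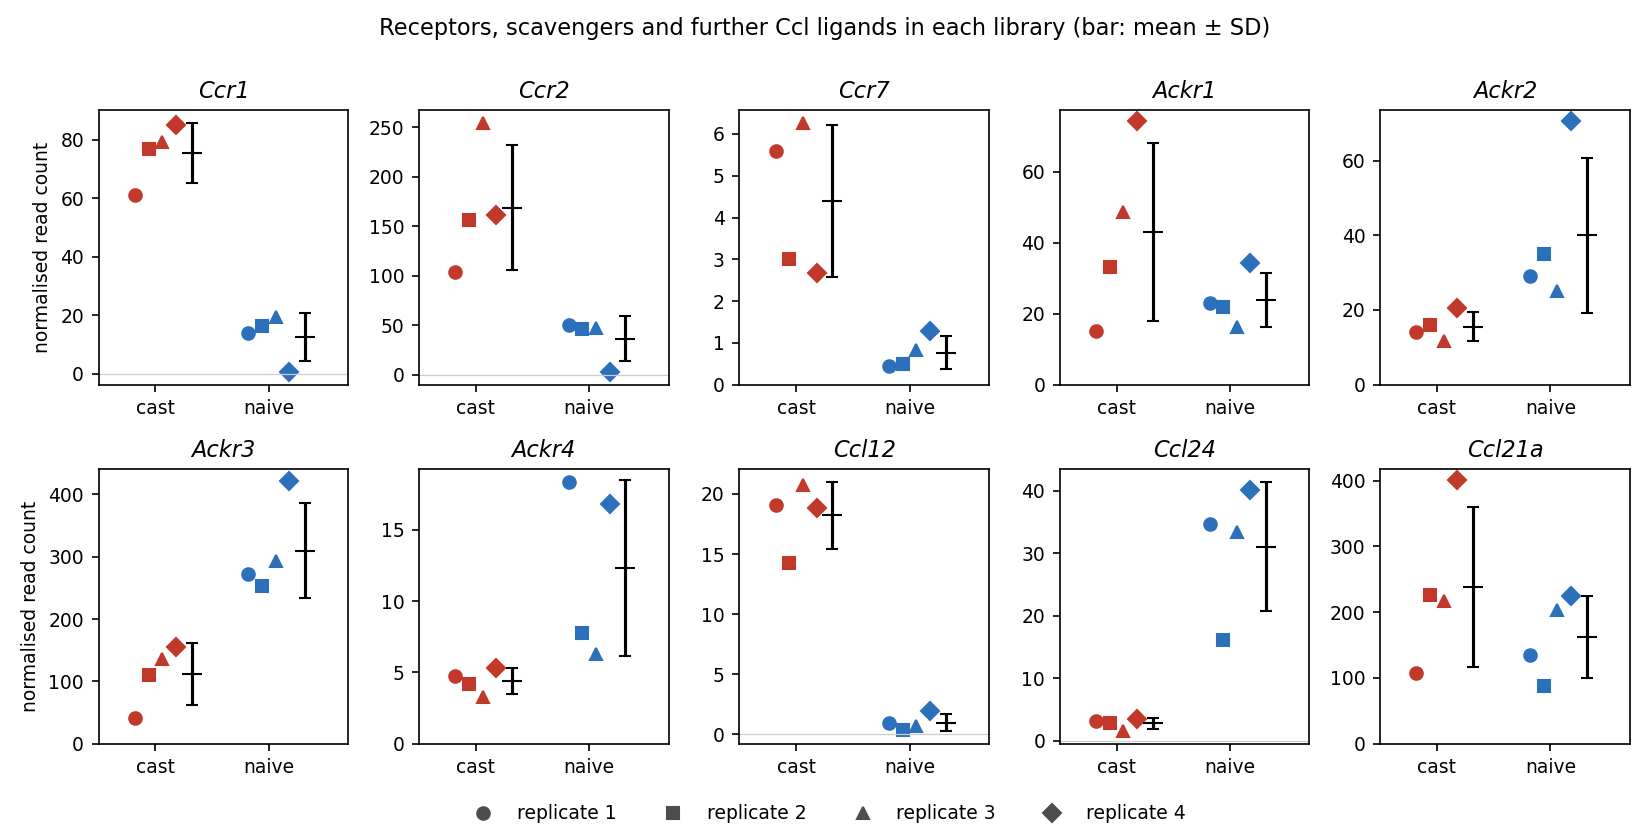
Normalised read counts (y axis, linear, 1 scale per gene) of receptors, atypical receptors and further Ccl ligands in the 4 cast and the 4 naive libraries (x axis), with the mean ± SD as a bar. Ccl12 lay between 14.2 and 20.7 in cast and between 0.323 and 1.94 in naive libraries, and Ackr2 between 11.6 and 20.5 in cast and between 25.1 and 70.5 in naive libraries.

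Of 5 atypical receptors Ackr2 and Ackr3 fell in cast capsules and 3 did not pass. Ackr2, which degrades inflammatory CC chemokines such as Ccl2 and Ccl5, had 14.0, 16.04, 11.6 and 20.5 normalised read counts in cast replicates 1 to 4, against 29.1, 35.01, 25.1 and 70.5 in naive replicates 1 to 4. It fell (log2 fold change -1.22, limma adjusted p = 0.0365), and the call was lost without cast replicate 1, 2 or 3 or naive replicate 2 (adjusted p = 0.0812, 0.0801, 0.110 and 0.0825). Ackr3, a scavenger of the chemokine CXCL12, fell with a log2 fold change of -1.59 (limma adjusted p = 0.0255) and was not past the threshold without cast replicate 2 (0.0575), naive replicate 2 (0.0530) or naive replicate 3 (0.0614). Ackr4, which takes up Ccl19 and Ccl21, averaged 4.40 ± 0.881 in cast and 12.3 ± 6.17 in naive libraries and did not pass (log2 fold change -1.19, limma adjusted p = 0.0519). It passed as lower in cast libraries by edgeR (adjusted p = 0.0308), DESeq2 (0.00466) and quantile normalisation (0.0368), and with array weights (0.0250). It also passed without a trend (0.0489), with a replicate block (0.0420) and without naive replicate 3 (0.0357), and not in the other alternatives. Ackr1 and Ccrl2, the other two, did not pass either (limma adjusted p = 0.374 and 0.596), and the median log2 fold change of the 5 genes was -1.19.

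Genes downstream of the receptors and around the chemokines were read from lists. Of 16 signalling and desensitisation genes 5 rose and 11 did not pass (median log2 fold change 0.48). Among those that rose were the Src family kinase Fgr (3.58, limma adjusted p = 0.00016), the GTPase Rac2 (1.89, adjusted p = 0.00612), the G protein subunit Gng2 and the regulator Rgs16, of which Rgs16 lost its call without cast replicate 2, 3 or 4 or naive replicate 2 and Rac2 lost its call with the muscle covariate (adjusted p = 0.0657). Of 15 genes of glycosaminoglycan carriers and chemokine-cleaving proteases, Mmp12, a macrophage elastase, rose (1.35, limma adjusted p = 0.0202), Dpp4, which trims chemokine ends, fell (-1.68, adjusted p = 0.00111) and 13 did not pass (median 0.25). Mmp12 was not past the threshold without cast replicate 1 (adjusted p = 0.0503), cast replicate 3 (0.0651) or naive replicate 3 (0.0575), or with a replicate block (0.0583). Of 20 inducers and feedback genes of the NF-kB and AP-1 type, Il1b and Vcam1 rose and 18 did not pass (median 0.43). Without naive replicate 4, 7 rose, and 17.7% of all genes were called in either direction, against 12.0% with all libraries.

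On the interleukin 4 and 13 axis 5 of 10 tested genes rose, 1 fell and 4 did not pass (median log2 fold change 1.19). Il4ra, a receptor chain of both cytokines, rose with a log2 fold change of 2.00 (limma adjusted p = 0.00111). Without cast replicate 2, 2 of the list rose, and 1139 of all genes were called, against 1810 with all libraries. Il13ra2, a decoy receptor, was among those that rose and had 0 naive reads, and its 67 cast reads were at least 16.5-fold higher if 3 reads are taken as the limit for the naive group as a whole. The call of Il13ra2 was lost without cast replicate 2 (adjusted p = 0.0616), naive replicate 2 (0.0565), naive replicate 3 (0.0549) or cast replicates 1 and 2 together (0.108), with a pseudocount of 5 (0.05005) and with the muscle covariate (0.171). The median of the list was taken with that gene at its fitted value and not at its bound. Of 8 genes of lymphotoxin signalling and lymphoid stroma 4 rose and 4 did not pass (median 1.31). Pdpn, which rose, lost its call without cast replicate 2, 3 or 4 or naive replicate 1, 2 or 3 (limma adjusted p of 0.0822 to 0.137). Without naive replicate 4, 6 of the list rose, and 17.7% of all genes were called in either direction, against 12.0% with all libraries. Cxcl13, a B cell attractant, averaged 176 ± 83.4 in cast and 8.05 ± 1.93 in naive libraries (SD, n = 4 each, log2 fold change 4.20, limma adjusted p = 0.000178).

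Some markers of the cells that make or follow Ccl chemokines moved with group, and their part in the Ccl values was not tested. Of 14 monocyte and macrophage markers Ms4a7 rose and 13 did not pass, with Csf1r at 802 ± 94.5 in cast and 788 ± 308 in naive libraries, and the list summed to 4624 to 6200 in cast and 2892 to 5763 in naive libraries. Ms4a7 was not past the threshold without cast replicates 1 and 2 (limma adjusted p = 0.0553). Of 8 inflammatory monocyte markers 5 rose, among them Ly6c2 (limma adjusted p = 0.0119), and Fn1, which fibroblasts also make and which dominates the sum, fell. Ly6c2 was not past the threshold without cast replicates 1 and 2 (limma adjusted p = 0.0596) or with the muscle covariate (0.125). The call of Fn1 was lost without cast replicate 3 or 4 or naive replicate 1, 2 or 3 (adjusted p = 0.122, 0.0815, 0.0921, 0.0987 and 0.0723), and also without a filter on low values (0.0763), by quantile normalisation (0.0898) and with the muscle covariate (0.160). The sum was 4494 to 12731 in cast and 17584 to 31801 in naive libraries. Of 10 neutrophil markers 9 rose, with sums of 998 to 6469 in cast and 47.9 to 108 in naive libraries. Of 10 T and natural killer cell markers 7 rose, with sums of 29.9 to 41.4 in cast and 5.73 to 7.76 in naive libraries, and Cd3e was at 0 in naive replicates 1 and 4. Of 6 eosinophil markers Siglecf rose, with sums of 9.82 to 25.8 in cast and 3.39 to 7.94 in naive libraries, and that call was lost on leaving out any single library but naive replicate 4. It was also lost by quantile normalisation (limma adjusted p = 0.120) and with a replicate block (0.0700). With the muscle covariate the log2 fold change of Siglecf was 0.066 (limma adjusted p = 0.888). Of 10 dendritic cell markers Ccr7 and Flt3 rose, with sums of 213 to 336 in cast and 140 to 241 in naive libraries. Flt3 was not past the threshold without cast replicate 3 or naive replicate 2 (limma adjusted p = 0.0591 and 0.0524). The same held without cast replicates 1 and 2 (0.108) and with the muscle covariate (0.0599). Of 10 endothelial markers Selp rose, with sums of 841 to 1376 in cast and 905 to 1318 in naive libraries. The call of Selp was lost with the muscle covariate (limma adjusted p = 0.126). Of 8 mast cell markers Fcer1a and Hdc rose, with sums of 162 to 480.1 in cast and 80.9 to 217 in naive libraries, and the call of Hdc was lost on leaving out any of 5 single libraries (adjusted p of 0.0613 to 0.0933). That of Fcer1a was lost without cast replicates 1 and 2 (limma adjusted p = 0.0505) and with the muscle covariate (0.0571). Apart from these cells, 10 of 11 erythroid markers rose, with sums of 6060 to 29739 in cast and 1730 to 2990.3 in naive libraries. With 1 library left out 7 to 10 of them rose, and without cast replicates 1 and 2, 2 did. Over all genes 4.73% were called without cast replicates 1 and 2, against 12.0% with all libraries.

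Likeness to other genes was measured by Pearson's r of log2(value + 1) over the 8 libraries after each group's mean was subtracted, among 12989 genes. For Ccl6 the closest genes were Rab4a (r = 0.951) and Cldn10 (0.946), for Ccl8 4833439L19Rik (0.977) and Aven (0.969), and for Ccl9 Rapgef5 (0.983) and Mdn1 (0.972). With 8 libraries and so many genes these values are a description, and naive replicate 4, the shallowest library, enters all of them.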

How the data were processed

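RNA was measured in 8 libraries of posterior knee joint capsule. Per the labels' protocols, ribosomal RNA was depleted from 200 ng of total RNA, and strand-specific libraries were read from both ends over 150 nt. The protocol text names Trimmomatic 0.38 and the human build hg38, whereas the submitters' processing notes give Trimmomatic 0.36 and the mouse build mm10, along with RSEM, Bowtie2 and edgeR; the listed symbols are those of mouse genes. The strand setting of the counting, the annotation and other versions are not given in the sources. Reads of genes on the opposite strand may therefore be counted, which was not tested. Ccl2, Ccl6 and Ccl19 overlap antisense genes, but 0% of their words of 31 letters occur in opposite-strand transcripts of other genes. For Ccl9, 3.80% of the words do. E230016K23Rik, antisense to Ccl6, had 5.93 to 10.3 in cast and 1.29 to 6.29 in naive libraries.

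The deposited table holds, for every gene in every library, a signal in the form of a scaled read count, as the authors deposited it, with totals of 972758 to 1045293 per library. Each value was a whole multiple of the value of 1 read, within 0.01, for 100% of genes, which gave back whole reads. Log2(value + 1) was compared with limma-trend for 15120 genes with a mean of at least 0.5, with Benjamini-Hochberg adjustment at 0.05. On recovered reads edgeR's quasi-likelihood test called 1851 genes. All 10 Ccl genes are named; from other lists, up to 4 with the smallest p past the threshold and receptors of the Ccl genes whatever their test. Likeness is given for the 3 Ccl genes with the highest mean. Some genes of the other lists are counted but not reported here by name. The members and lists were chosen with earlier results of these data known. Alternatives were other pseudocounts, filters and scalings, limma without a trend, array weights, a muscle covariate, a replicate block, libraries left out, edgeR and DESeq2. Same-numbered libraries of the groups did not deviate together (correlations of -0.06 to 0.08), so numbers were not treated as pairs. Positions, transcript lengths and antisense genes came from GENCODE release M21 (GRCm38). Promoters came from RefSeq, and the scripts were checked on simulated data. Python 3.11.15 was used with scipy 1.17.1, numpy 2.4.6, pandas 2.3.3 and matplotlib 3.10.9, and R 4.3.3 with edgeR 4.0.16, limma 3.58.1 and DESeq2 1.42.0.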

Additional observations from a re-analysis of the deposited data

Results flagged for a closer look

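Ccl11 in naive replicate 4 stood apart from its group, at 3.88 normalised read counts against 18.1 to 19.1 in the other 3 naive libraries. The gap to the nearest of the others, divided by the range of the group, was 0.93, above Dixon's 95% critical value. It was the only such case among 20 groups tested, 10 genes in 2 groups each, and chance gives about 1 in 20. The value rests on 6 reads in the shallowest library. Without that library Ccl11 was lower in cast capsules (log2 fold change -0.61, limma adjusted p = 0.0466).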

How the results depend on the processing

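Of 23 alternatives, 22 were planned, and leaving out cast replicate 1 and naive replicate 4 together was chosen after seeing the data. Ccl8 and Ccl5 were past the threshold in all 23. The number of Ccl genes called in either direction, 2 with all libraries, was 7 with array weights, 6 with the muscle covariate, 4 by edgeR, 5 by DESeq2 and 5 without both of those libraries. Leaving out 1 library gave 2 to 4. The number of all genes called, 1810, was 3985 with array weights, 3967 with the muscle covariate, 715 without cast replicates 1 and 2, 3275 without cast replicate 1 and naive replicate 4, and 920 to 2672 with 1 library left out. The log2 fold change of Ccl11, -0.12, turned to 1.27 with the muscle covariate, and was -0.61 (without naive replicate 4) to 0.0673 (without naive replicate 1) with 1 library left out, 0.04 without naive replicate 2 or naive replicate 3. For Ccl19 it was -0.0074 with the muscle covariate, against 1.56 with all libraries. Fits with the muscle covariate separate muscle level from group only in part, since these were largely aligned outside naive replicate 4. The causes of these shifts were not tested. With replicate number as a block, although same-numbered libraries did not deviate together and 1 of 8 libraries correlated best with its own number, 1371 genes and the same 2 Ccl genes were called. Rescaling by medians of ratios or without muscle, erythroid, neutrophil and marrow genes moved the median of all genes by -0.005 and 0.020, and quantile normalisation by -0.093, with 807 genes higher and 995 lower in cast libraries, against 984 and 826. Depth limits Ccl3 and Ccl4, with 15 and 2 naive reads, and all genes in naive replicate 4, where 3 reads correspond to 1.94.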
